A study of Mus musculus with 19 samples.

Results

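Dusp1, Dusp4, Dusp5, Dusp6, Spry2, Spry4, Spred1 and Spred2 encode inhibitors of the ERK pathway and were chosen by symbol, as 8 of the 20436 genes in the count tables. All 8 had a row in the RNA table and in the ribosome profiling table, and all 8 passed the filter on low counts in both. The samples were hippocampal slices of wild-type male mice aged 28 to 42 days, whose strain the labels do not give, with slices of several mice pooled per replicate and with CA3 kept. DHPG, an agonist of group I metabotropic glutamate receptors (mGluR1 and mGluR5), was applied at 100 µM for 5 min, and basal slices received the vehicle ACSF for the same time. Slices of both groups were then put into cycloheximide at 100 µg/ml, which stops elongating ribosomes. RNA-seq had 4 basal and 5 DHPG libraries, and ribosome profiling, which counts ribosome-protected fragments (RPFs), had 5 basal and 5 DHPG libraries. In RNA-seq, replicate 5 was DHPG only.

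Growth factor receptors and mGluR5 can activate Ras, which drives a chain of kinases from Raf through MEK to ERK. Active ERK induces transcription of several of its own inhibitors, and this negative feedback limits how long the signal lasts. The DUSPs are dual-specificity phosphatases that remove the activating phosphates from MAP kinases. Sprouty proteins act upstream, between receptor and Raf, and Spred proteins bring the Ras GTPase-activating protein neurofibromin to the membrane. ERK activity is required for several forms of hippocampal plasticity, and Dusp, Spry and immediate early genes are widely used as readouts of it. In bulk slices, a change in the share of a cell type and a change in RNA per cell cannot be told apart.

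Total counts ran from 4870813 to 7793244 in the RNA libraries and from 5692064 to 22092434 in the RPF libraries. All 7 neuronal markers examined were detected, at a summed 4674 to 6323 CPM (counts scaled to the size of the library, with edgeR's TMM factors) in basal RNA and 4702 to 6278 after DHPG. Estimates of some, not all, markers of brain regions and glia were also higher after DHPG. The thalamus markers were picked in an earlier look at these data, so their counts are descriptions. Of 5 tested in RNA, all 5 had a higher estimate after DHPG and 1, Prkcd, passed an adjusted p of 0.01 (log2 fold change 0.70, adjusted p = 0.00444). Their summed level was 72.5 to 96.99 CPM in basal RNA and 87.3 to 121 CPM after DHPG. In RPF, 6 of 6 thalamus markers were called, against 0.22% of all genes, at 106 to 134 CPM in basal slices and 113 to 178 CPM after DHPG. All 6 were higher after DHPG in replicates 1 to 4, and 2 of 6 in replicate 5 (median difference -0.085 log2 CPM). All 6 oligodendrocyte markers had a higher RNA estimate after DHPG, none past the threshold, with a summed 2462 to 5282 CPM in basal slices and 2812 to 6034 after DHPG. In RPF, 5 of the 6 were higher and 1, Mag, passed (log2 fold change 0.16, adjusted p = 0.0337). RPF estimates were also above 0 for 7 of 7 astrocyte, 4 of 4 oligodendrocyte precursor and 6 of 6 microglia markers, none of them past the threshold. Of all genes, 51.4% were above 0 in RPF. Other lists had fewer above 0 in RPF: 1 of 5 endothelial and mural (median log2 fold change -0.12), 3 of 7 neuronal and 1 of 3 CA1 markers. CA3 had 3 of 4 and dentate gyrus 2 of 3. In RNA, 6 of 7 astrocyte, 4 of 4 precursor and 3 of 6 microglia markers were above 0, against 52.1% of all genes. The part of these cell type differences in the values below was not tested.

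ERK and its partner pathways are known to act at the promoters of some, not all, of their target genes. They do so through CREB at cyclic AMP response elements (CRE), through serum response factor at CArG boxes and through ETS factors. Action at the promoters of these 8 genes was not tested. RefSeq promoter windows of GRCm38.p6 (mm10) were held for 6 of the 8 genes, and 4 are shown: Dusp1, Dusp5 and Dusp6 as phosphatase genes with one of these motifs each, and Spry2 for its RNA estimate, the largest of the 8. Each run is the 250 bases upstream of the annotated start, written 5′ to 3′ on the strand of the gene, and capitals mark a CRE (TGACGTCA), a CArG box or an ETS core (CGGAAG or its complement). The windows are chr17:26508473-26508722 on the minus strand for Dusp1, chr19:53528895-53529144 on the plus strand for Dusp5, chr10:99262981-99263230 on the plus strand for Dusp6 and chr14:105896820-105897069 on the minus strand for Spry2.
Dusp1: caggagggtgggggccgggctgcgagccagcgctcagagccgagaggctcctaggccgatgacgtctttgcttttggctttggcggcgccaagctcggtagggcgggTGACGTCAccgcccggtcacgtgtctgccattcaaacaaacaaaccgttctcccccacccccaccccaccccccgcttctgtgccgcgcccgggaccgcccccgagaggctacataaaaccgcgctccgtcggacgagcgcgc
Dusp5: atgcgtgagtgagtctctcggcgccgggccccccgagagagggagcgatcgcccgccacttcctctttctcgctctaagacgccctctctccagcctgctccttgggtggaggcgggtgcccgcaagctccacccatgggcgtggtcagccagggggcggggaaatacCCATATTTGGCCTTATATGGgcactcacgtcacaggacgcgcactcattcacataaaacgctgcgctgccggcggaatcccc
Dusp6: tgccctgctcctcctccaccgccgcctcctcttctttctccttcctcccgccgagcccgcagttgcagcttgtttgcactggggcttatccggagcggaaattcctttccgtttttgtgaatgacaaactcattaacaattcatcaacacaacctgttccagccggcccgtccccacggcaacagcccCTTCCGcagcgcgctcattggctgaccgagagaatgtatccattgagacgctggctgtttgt
Spry2: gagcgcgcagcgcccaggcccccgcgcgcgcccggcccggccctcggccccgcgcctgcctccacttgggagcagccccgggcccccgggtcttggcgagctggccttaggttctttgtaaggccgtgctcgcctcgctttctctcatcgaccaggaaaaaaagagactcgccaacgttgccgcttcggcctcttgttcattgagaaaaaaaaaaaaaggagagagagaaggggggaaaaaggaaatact
Dusp1 held a CRE from 143 to 136 bases before the start. Dusp5 held 2 CArG boxes side by side, from 82 to 73 and from 72 to 63 bases before the start. An ETS core lay from 62 to 57 bases before the start of Dusp6, from 17 to 12 before that of Spred1 and from 43 to 38 before that of Spred2. Of all 32851 windows of this length, 1.55% held a CRE, 1.47% a CArG box and 13.6% an ETS core on either strand. Other letters searched on both strands were TGACG (in 3 of the 6 genes and 17.8% of all windows), which is part of the CRE, CCGGAAGT (0 of 6 and 2.88%), which contains the ETS core, TGACTCA or TGAGTCA (0 of 6 and 4.46%), TATAAA (0 of 6 and 12.4%), CCAAT (1 of 6 and 33.8%) and CACGTG (1 of 6 and 6.02%). Spry2 held none of the letters searched in this window.

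The 8 genes differed widely in basal level. Levels of different genes were compared per kb, as CPM per kb of transcript for RNA and CPM per kb of coding sequence without its ends for RPF. In basal RNA, Dusp1 was highest at 95.8 ± 32.4 CPM per kb (SD, n = 4), followed by Dusp6 at 51.3 ± 3.68, and their ranges overlapped. Spry2 came next at 33.5 ± 1.34 CPM per kb, with no overlap with Dusp6 above it or Spred1 below it. Spred1 at 24.96 ± 5.91 and Spred2 at 19.9 ± 1.10 CPM per kb overlapped each other. Dusp4 (12.0 ± 0.70), Dusp5 (9.50 ± 1.88) and Spry4 (2.02 ± 0.39) followed in CPM per kb, each apart from its neighbours. Spry4 was thus the scarcest of the 8 and rested on 49 to 66 counts per basal RNA library.

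Ribosome occupancy ordered the genes differently at the top and the bottom. In basal RPF, Dusp6 led at 178 ± 12.7 CPM per kb of coding sequence (SD, n = 5), with every library above those of Dusp1 at 131 ± 12.996. Spry2 (59.6 ± 6.67 CPM per kb) and Spred1 (56.8 ± 6.48) overlapped. Spred2 (38.4 ± 3.98 CPM per kb) and Dusp4 (35.4 ± 6.19) did too, as did Spry4 (17.2 ± 2.97) and Dusp5 (15.7 ± 1.16). Dusp6 therefore stood above Dusp1 in RPF though not in RNA, and Spry4 overlapped Dusp5 in RPF while its RNA was lower than that of Dusp5 in every library.

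The basal ratio of RPF to RNA per length, a measure of ribosome load per transcript, put numbers on this. Over 4 basal replicates with both libraries, the log2 ratio of Spry4 was 3.05 ± 0.35 (SD), at the 91.1 percentile of 12230 genes, whose median was 0.85. Dusp6 followed at 1.82 ± 0.08, at the 74.3 percentile, and its 4 values lay between 1.71 and 1.88. Dusp4 had a log2 ratio of 1.51 ± 0.31, Spred1 1.25 ± 0.39 and Spred2 0.97 ± 0.12. Spry2 at 0.83 ± 0.16, Dusp5 at 0.72 ± 0.36 and Dusp1 at 0.48 ± 0.53 lay just below the median of all genes, at the 49.5, 46.4 and 40.02 percentiles. Dusp1 was the most variable of the 8, from -0.00024 in replicate 2 and 0.08 in replicate 3 to 0.74 in replicate 1 and 1.10 in replicate 4. Spry4 has a long transcript (4755 bases) around a short coding sequence (903 bases), so its ratio rests on the length used: without division by length it was 0.56, at the 76.6 percentile. Spred1, with 6016 bases of transcript and 1335 of coding sequence, went from the 60.9 to the 21.8 percentile without that division, and Spred2 from the 53.5 to the 25.8.

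**Figure D1:**
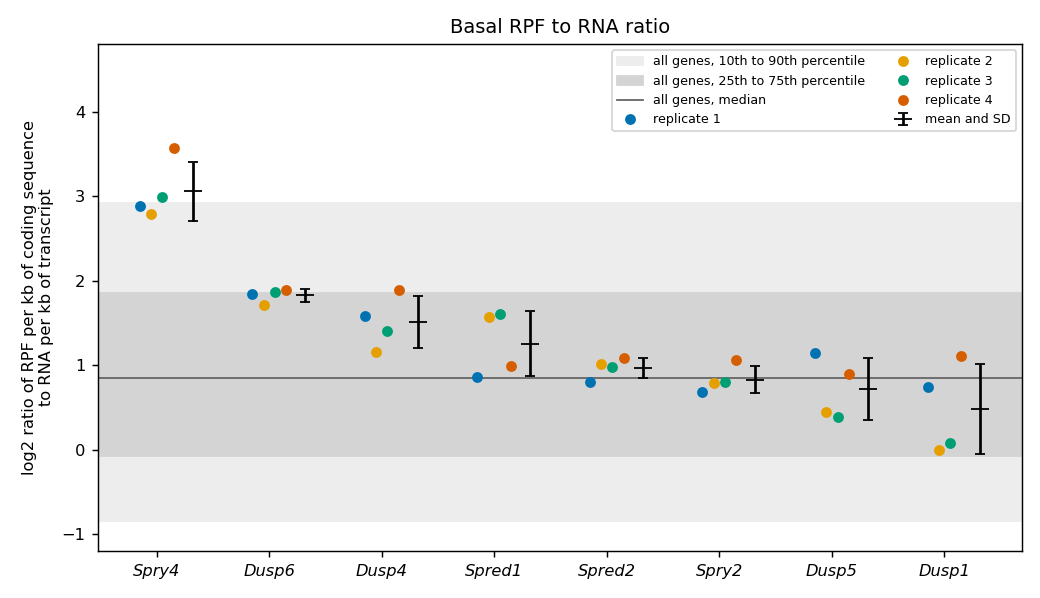
Basal log2 ratio of RPF per kb of coding sequence to RNA per kb of transcript (vertical axis) for the 8 genes (horizontal axis, in order of the mean), with a point for each of the 4 replicates, a black mark for mean and SD, and shaded bands for all 12230 genes. Spry4 lay above the 90th percentile band on average, Dusp6 was tight near the upper quartile, and Dusp1 and Spred1 were spread out.

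To ask whether 5 min of mGluR activation altered these genes, the groups were compared in edgeR by a quasi-likelihood test in which replicate numbers formed blocks. None of the 8 passed the adjusted p of 0.01 used for RNA, where 0.00773% of all 12935 genes tested did, and none passed the 0.05 used for RPF, where 0.22% of 13208 did. At an unadjusted p under 0.05, Spry2 and Dusp4 were higher in RNA, 2 of 8 genes, against 8.02% of all genes in either direction and 5.2% in that one. In RPF, 0 of 8 had an unadjusted p under 0.05, against 10.8% of all genes. DESeq2 with the same blocks called 0 of 8 in RNA and 0 of 8 in RPF, where it gave an adjusted p for Dusp6 alone (0.606). Of the RNA estimates 7 of 8 were above 0, against 52.1% of all genes, with a median log2 fold change of 0.11 for the 8 and 0.0068 for all genes. In RPF, 5 of 8 estimates were above 0, against 51.4% of all genes, and the median was 0.029 beside 0.0031.

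Spry2, an inhibitor of receptor tyrosine kinase signaling to Ras and Raf, had the largest RNA estimate of the 8. It lies at chr14:105891947-105896819 on the minus strand of mm10. In basal RNA it was at 66.2, 71.5, 72.5 and 69.7 CPM in replicates 1 to 4, and after DHPG at 87.0, 88.8, 74.2, 96.5 and 73.3 CPM in replicates 1 to 5. Every DHPG library lay above every basal library, and 0.51% of all genes showed such a separation in either direction. The smallest gap between the groups was from 72.5 to 73.3 CPM. The means were 70.0 ± 2.79 CPM (SD, n = 4) and 84.0 ± 9.99 (SD, n = 5), and the log2 fold change was 0.31 (SE 0.08, 95% interval 0.14 to 0.47). By edgeR its p of 0.000704 ranked 22 among 12935 genes and its adjusted p was 0.414, so it did not pass. All 4 pairs were higher, by 0.39, 0.31, 0.032 and 0.47 log2 CPM in replicates 1 to 4, and 8.67% of all genes were higher in every RNA pair. With counts batch-corrected by ComBat and tested by DESeq2 without the replicate block, its adjusted p was 0.00233, past the RNA threshold, among 102 genes called. DESeq2 with the block called 0 genes in RNA. The study also used ComBat and DESeq2, but on more replicates, some of them CA1-enriched slices not analysed here. Over the other alternatives the adjusted p of Spry2 ran from 0.0716 to 0.99994. The thalamus markers, picked in an earlier look at these data, were higher in the same comparison. Their median RNA difference was 0.34, 1.11, 0.45 and 0.63 log2 CPM in pairs 1 to 4. Their part in the Spry2 difference was not tested.

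The Spry2 RPFs did not follow. They were at 45.2, 52.5, 53.6, 61.8 and 51.7 CPM in basal replicates 1 to 5 and at 43.1, 57.5, 49.5, 62.7 and 56.0 CPM after DHPG. The groups overlapped almost completely, and the order of the replicates was kept apart from replicate 3. The log2 fold change was 0.021 (SE 0.05, 95% interval -0.07 to 0.11, adjusted p = 0.911 by edgeR), with 3 of 5 pairs higher. The test of the difference between RPF and RNA, the change in translation efficiency (TE), gave a log2 estimate of -0.29 (SE 0.09, 95% interval -0.47 to -0.11). Its unadjusted p was 0.00265, rank 44 of 12691 genes, and its adjusted p by edgeR was 0.645. No gene passed an adjusted p of 0.05 for TE (0% of 12691 by edgeR, and 859 at an unadjusted p under 0.05, 6.77%), and 2 of the 8 genes, Spry2 and Dusp4, were lower at an unadjusted p under 0.05, against 3.63% of all genes. These are the 2 genes with the largest RNA estimates, and TE sets RPF against the same RNA values, so this count is not independent of the RNA result.

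**Figure D2:**
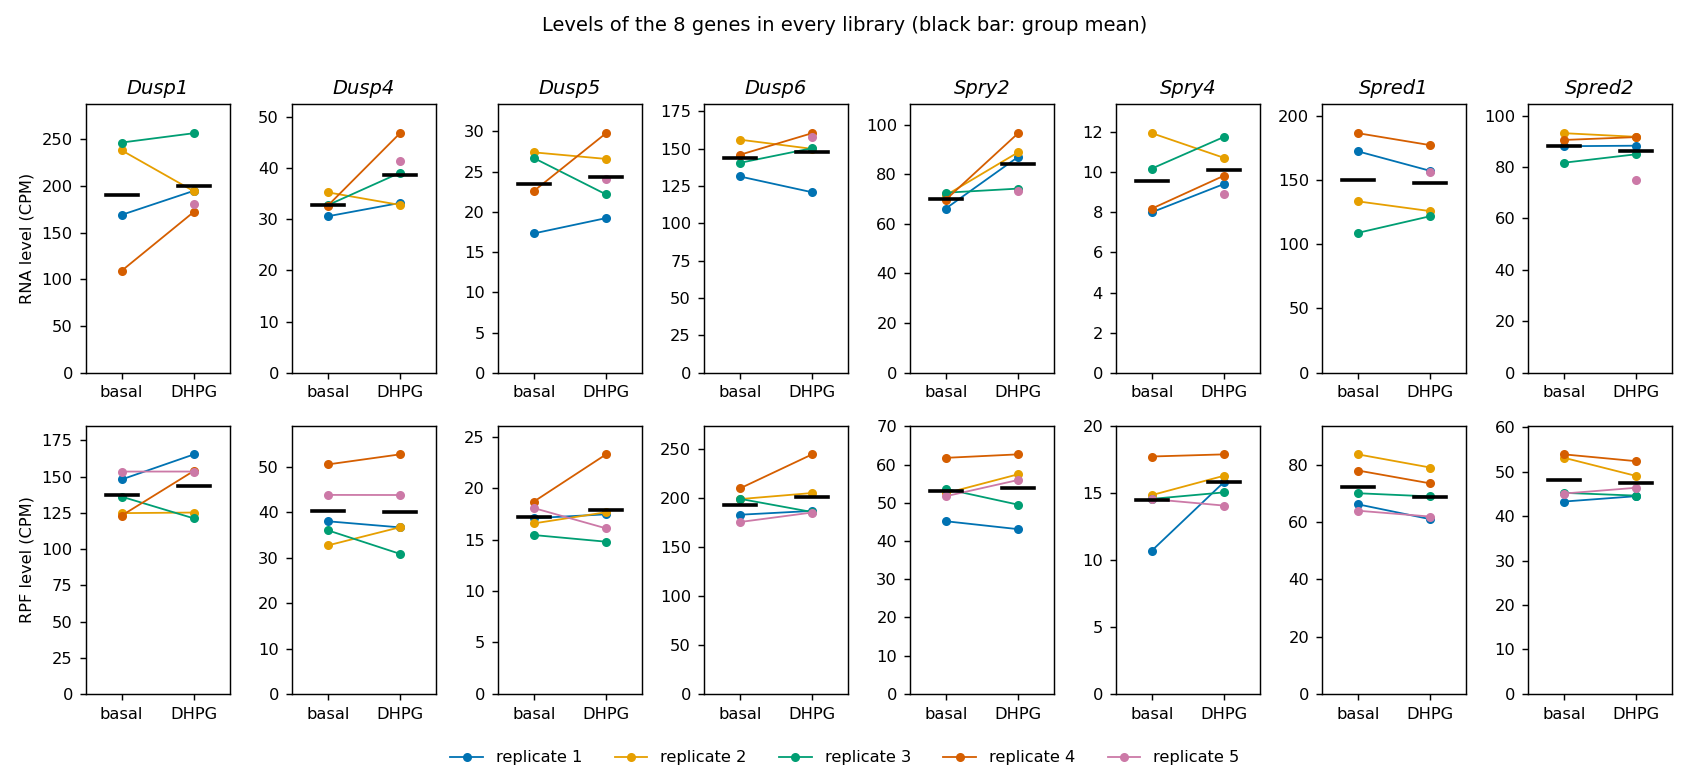
CPM (vertical axes, from 0) of each of the 8 genes in every RNA library (top row) and RPF library (bottom row), basal at left and DHPG at right, with lines joining libraries of the same replicate number and black bars at the group means. In Spry2 RNA all 5 DHPG points lie above the 4 basal points, while in the other panels the groups overlap and replicates keep much of their own level.

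Spry4, the related Sprouty gene at chr18:38586247-38601347 on the minus strand, was measured with the least depth. Its basal RNA was 8.01, 12.0, 10.2 and 8.19 CPM in replicates 1 to 4, and 9.42, 10.7, 11.8, 9.84 and 8.91 CPM after DHPG. The groups overlapped, with 3 of 4 pairs higher, and the log2 fold change was 0.14 (SE 0.15, 95% interval -0.15 to 0.44, adjusted p = 0.833 by edgeR). Its RPFs were at 10.7, 14.9, 14.6, 17.7 and 14.6 CPM in basal slices and at 15.8, 16.3, 15.1, 17.9 and 14.1 CPM after DHPG. The log2 fold change in RPF, 0.09 (SE 0.07, adjusted p = 0.701), was the highest of the 8 genes. It leaned on pair 1, which was higher by 0.56 log2 CPM on 69 basal and 89 DHPG counts, and was 0.042 without replicate 1. The RNA interval of Spry4 was the widest of the 8 and includes both 0 and the estimate of Spry2.

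The nuclear phosphatases Dusp1, Dusp4 and Dusp5 were next. Dusp1, at chr17:26505591-26508472 on the minus strand, inactivates p38 and JNK as well as ERK and is itself an immediate early gene. Its RNA was at 169, 238, 246 and 109 CPM in basal replicates 1 to 4 and at 195, 194, 256, 172 and 181 CPM after DHPG. The basal libraries spanned more than the DHPG libraries and enclosed all but one of them. The log2 fold change was 0.15 (SE 0.09, 95% interval -0.04 to 0.34, adjusted p = 0.692 by edgeR), and it depended on single replicates. It was 0.30 (adjusted p = 0.0559) without replicate 2, whose pair differed by -0.29 log2 CPM, and -0.0091 (adjusted p = 0.996) without replicate 4, whose pair differed by 0.66. Dusp1 RPFs were at 148, 125, 136, 123 and 154 CPM in basal slices and at 165, 125, 121, 154 and 154 CPM after DHPG, with a log2 fold change of 0.046 (SE 0.04, adjusted p = 0.751). Pair 4 was again the highest in RPF, at 0.32 log2 CPM, and without replicate 4 the estimate was -0.017.

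Dusp4, at chr8:34807610-34819894 on the plus strand, encodes a nuclear phosphatase of ERK and JNK and had the second largest RNA estimate. Basal RNA was tight, at 30.6, 35.2, 32.7 and 32.6 CPM in replicates 1 to 4, and the DHPG libraries were at 33.2, 32.8, 39.1, 46.8 and 41.4 CPM. Of the 5 DHPG libraries 3 lay above the basal range and 2 within it. The log2 fold change was 0.22 (SE 0.10, 95% interval 0.018 to 0.42), with an unadjusted p of 0.034, an adjusted p of 0.598 by edgeR and 3 of 4 pairs higher. Without replicate 4, whose pair differed by 0.52 log2 CPM, the estimate was 0.10 (adjusted p = 0.996). Dusp4 RPFs were at 38.0, 32.7, 36.0, 50.5 and 43.8 CPM in basal slices and at 36.7, 36.7, 30.8, 52.8 and 43.8 CPM after DHPG. Here the replicates kept their order of level far more than the treatments did, and the log2 fold change was -0.012 (SE 0.05, 95% interval -0.12 to 0.09, adjusted p = 0.954). The TE estimate was -0.24 (SE 0.11, unadjusted p = 0.0381, adjusted p = 0.727), and it was -0.37 without replicate 2 and -0.13 without replicate 4.

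Dusp5, at chr19:53529145-53541809 on the plus strand, is a nuclear phosphatase specific for ERK. Its RNA was at 17.3, 27.4, 26.7 and 22.6 CPM in basal replicates 1 to 4 and at 19.2, 26.6, 22.2, 29.8 and 24.0 CPM after DHPG. Pairs 1 and 4 were higher, by 0.15 and 0.39 log2 CPM, and pairs 2 and 3 lower, by -0.043 and -0.26. The log2 fold change was 0.069 (SE 0.11, adjusted p = 0.908 by edgeR) and -0.064 without replicate 4. In RPF the values were 17.1, 16.6, 15.4, 18.7 and 18.1 CPM in basal slices and 17.5, 17.7, 14.8, 23.3 and 16.1 CPM after DHPG. Replicate 4 after DHPG stood above the rest, and the log2 fold change was 0.036 (SE 0.07, adjusted p = 0.898), or -0.030 without that replicate.

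Dusp6, at chr10:99263231-99267489 on the plus strand, encodes the cytoplasmic ERK phosphatase and is often taken as a steady readout of ERK activity. It had 131, 156, 140.5 and 146 CPM in basal RNA and 121, 149.8, 150.3, 160.3 and 158 CPM after DHPG. The groups overlapped and 2 of 4 pairs were higher, with a log2 fold change of 0.016 (SE 0.07, 95% interval -0.13 to 0.16, adjusted p = 0.971 by edgeR). The estimate was below 0 without replicate 3 (-0.012) or replicate 4 (-0.029). Dusp6 RPFs were at 183, 198, 199, 209 and 175 CPM in basal slices and at 186, 205, 185, 244 and 185 CPM after DHPG. In RPF 4 of 5 pairs were higher, and the log2 fold change was 0.050 (SE 0.04, 95% interval -0.021 to 0.12, adjusted p = 0.651). It was 0.0076 without replicate 4 and 0.10 without replicate 3.

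The Spred genes, at chr2:117121071-117182279 for Spred1 and chr11:19924442-20024026 for Spred2, both on the plus strand, gave the smallest RNA estimates together with Dusp6. Spred1 RNA was at 172, 133, 109 and 186 CPM in basal replicates 1 to 4 and at 157, 126, 122, 177 and 156 CPM after DHPG. The pairs differed less than the replicates did, and the log2 fold change was -0.035 (SE 0.07, adjusted p = 0.937 by edgeR). Spred1 RPFs were lower in 5 of 5 pairs, by -0.12, -0.08, -0.023, -0.09 and -0.047 log2 CPM in replicates 1 to 5, a pattern that 4.72% of all genes showed. They went from 66.3, 83.7, 70.1, 78.1 and 64.0 CPM in basal slices to 61.1, 79.1, 69.03, 73.6 and 62.0 CPM. The groups overlapped, and the log2 fold change of -0.07 (SE 0.04, 95% interval -0.14 to 0.014, adjusted p = 0.578) did not pass. Spred2 RNA was at 88.1, 93.1, 81.6 and 90.5 CPM in basal slices and 88.3, 91.7, 84.9, 91.6 and 74.8 CPM after DHPG. The pairs 1 to 4 of Spred2 differed by at most 0.057 log2 CPM, and its log2 fold change was 0.014 (SE 0.07, 95% interval -0.13 to 0.16, adjusted p = 0.9754). In RPF Spred2 was at 43.3, 53.2, 45.3, 53.9 and 45.1 CPM in basal slices and 44.5, 49.1, 44.6, 52.4 and 46.4 CPM after DHPG, a log2 fold change of -0.028 (SE 0.05, adjusted p = 0.868).

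**Figure D3:**
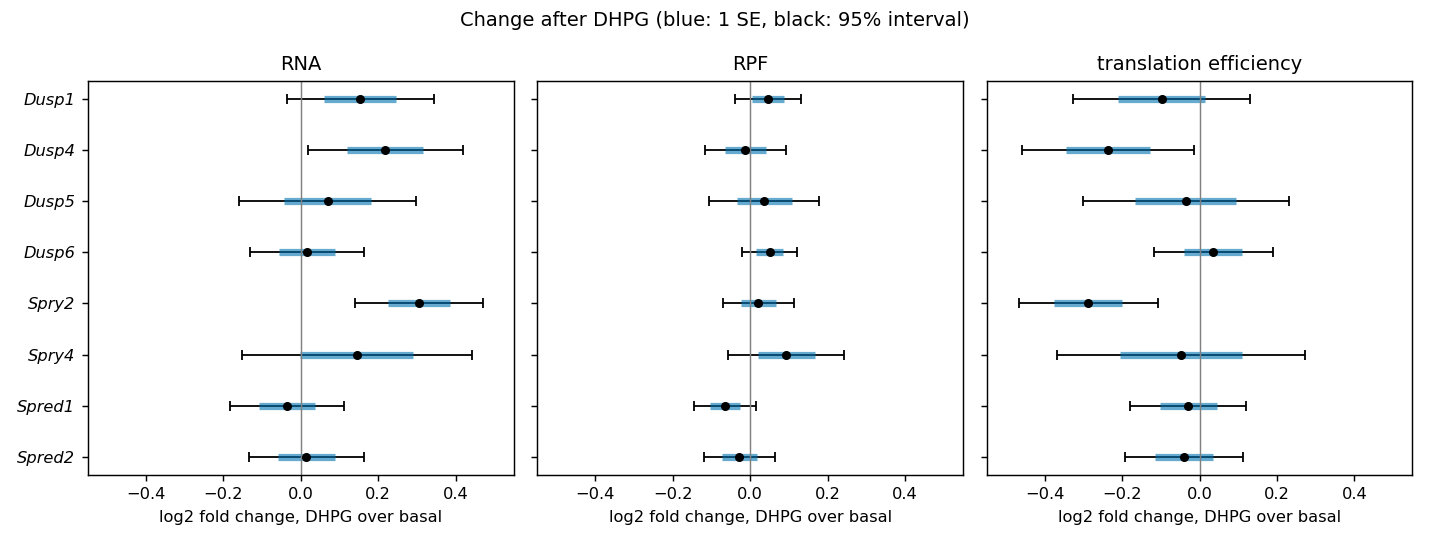
Log2 fold change of DHPG over basal (horizontal axes) for the 8 genes in RNA, RPF and translation efficiency, with blue bars for 1 SE and black bars for the 95% interval from edgeR. The RNA intervals of Spry2 and Dusp4 and their TE intervals leave out 0, all RPF intervals include it, and no gene passed after adjustment.

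Apart from the RNA of Spry2 and Dusp4, most of the variance of these genes lay between replicates. Of the variance of log2 CPM over paired libraries, replicate number held 70.3% to 95.1% for the RNA of Dusp1, Dusp5, Dusp6, Spry4, Spred1 and Spred2. In Spry2 RNA, replicate number held 11.6% and treatment 68.1%, and in Dusp4 RNA they held 34.0% and 28.5%. In RPF, replicate number held 56.5% (Spry4) to 93.0% (Spred1) of the variance, and treatment at most 12.9%. Replicate number has more levels than treatment, so part of its larger share would arise without any true difference between replicates. Dusp1 and Spred1 were opposed across libraries, with a Pearson r of -0.84 over 9 RNA libraries and -0.77 over 10 RPF libraries. Dusp5 and Dusp6 went together (r = 0.77 in RNA and 0.72 in RPF), as did Spred1 and Spred2 in RPF (0.80) though not in RNA (0.21). Libraries with the same replicate number are not independent points and libraries differ in depth, so the correlations are descriptions. Across all 12691 genes kept in both assays, the genes closest to each member by the mean of r over RNA and over RPF libraries were Ssh3 for Dusp1 (mean r 0.91), Sowaha for Dusp4 (0.92), Arid5a for Dusp5 (0.94), Creg2 for Dusp6 (0.95), Tmem151b for Spry4 (0.92), D830031N03Rik for Spred1 (0.96) and Dnaja4 for Spred2 (0.89). For Spry2 they were Fosb (0.85) and Per2 (0.82), of which Fosb is an immediate early gene.

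The pairs did not carry the differences evenly. In RNA, 6, 1, 7 and 7 of the 8 genes were higher after DHPG in pairs 1 to 4, and the median differences over the 8 were 0.13, -0.07, 0.08 and 0.32 log2 CPM. Pair 2 was thus low for all of them but Spry2, and pair 4 was the highest for Dusp1, Dusp4, Dusp5, Dusp6, Spry2 and Spry4. In RPF, 5, 6, 1, 6 and 4 of the 8 were higher in pairs 1 to 5, with medians of 0.031, 0.07, -0.08, 0.041 and -0.00027. Pair 3 was the low one there, although 7 of the 8 genes had been higher in RNA of the same pair. The median over all genes lay between -0.0070 and 0.019 log2 CPM in each pair.

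**Figure D4:**
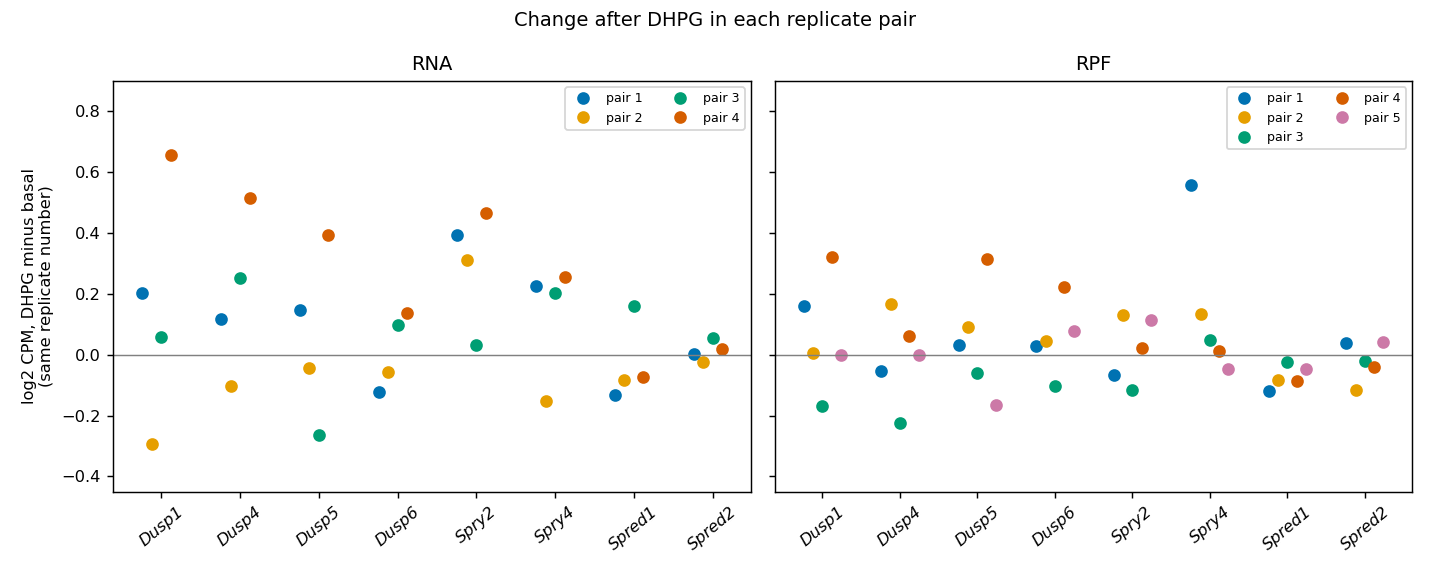
Difference in log2 CPM between the DHPG and the basal library of the same replicate number (vertical axis) for the 8 genes (horizontal axis), with 4 RNA pairs at left and 5 RPF pairs at right. Pair 4 lies at the top for most genes in RNA, pair 2 lies below 0 for 7 of 8, and in RPF only the points of Spred1 all lie below 0.

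Other genes of the pathway were read in lists. Of 11 further feedback genes (other Dusp, Spry and Spred genes, Il17rd and Errfi1), 9 were tested, and 7 had a higher RNA estimate after DHPG, against 52.1% of all genes, with a median log2 fold change of 0.13. At an unadjusted p under 0.05, 2 of the 9 were higher, against 5.2% of all genes. These were Dusp8 (0.24), a phosphatase of JNK and p38, and Dusp7 (0.21), a cytoplasmic ERK phosphatase, while Dusp2 (-0.18) and Il17rd (-0.08) had the lowest estimates. Their RPF median was 0.036, with Dusp16 (0.16) and Spry1 (0.16) highest and Il17rd (-0.12) and Dusp2 (-0.09) lowest.

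The ERK cascade itself, from Ras to the kinases downstream of ERK, had 14 of 25 RNA estimates above 0, against 52.1% of all genes. The median was 0.024, and 2 of the 25 were higher at an unadjusted p under 0.05, against 5.2% of all genes. Mknk2 (0.32), a kinase of the initiation factor eIF4E, and Mapk3 (0.23), which encodes ERK1, were the highest, and Rps6ka1 (-0.13) and Mknk1 (-0.12) the lowest. In RPF, 20 of the 25 estimates were below 0, with a median of -0.031 and 3 lower at an unadjusted p under 0.05, against 48.6% of all genes below 0 and 4.21% lower at that p. The lowest there were Rps6ka3 (-0.16) and Sos1 (-0.11), and Nras (0.08) and Araf (0.05) the highest.

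ERK-responsive genes, most of them immediate early transcription factors, had 17 of 19 RNA estimates above 0, against 52.1% of all genes, with a median of 0.18. At an unadjusted p under 0.05, 9 of the 19 were higher, against 5.2% of all genes. The list also holds Srf and Elk1, which encode transcription factors through which ERK acts, and Elk1 (0.18) is among these 9. Ier2 (0.42) and Egr1 (0.38) led, and Ier3 (-0.043) and Etv1 (-0.034) were lowest. Their RPF median was 0.06, with 17 of 19 above 0 and 4 higher at an unadjusted p under 0.05, against 6.55% of all genes. Fosb (0.11) and Egr3 (0.10) were the highest in RPF, and Elk1 (-0.031) and Arc (-0.018) the lowest. No gene of these 3 lists passed the adjusted threshold in RNA, RPF or TE. The lists were chosen with earlier results of these data known and are given as descriptions. By pair, the median RNA difference of the ERK-responsive genes was 0.17, 0.044, 0.10 and 0.38 log2 CPM in replicates 1 to 4, highest and lowest in the same pairs as the 8 feedback genes. CA1 markers (0.06, -0.11, 0.07 and 0.30) and oligodendrocyte precursor markers (0.12, -0.028, 0.23 and 0.35) were also highest in pair 4 and lowest in pair 2, and their part in the pattern was not tested.

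**Figure D5:**
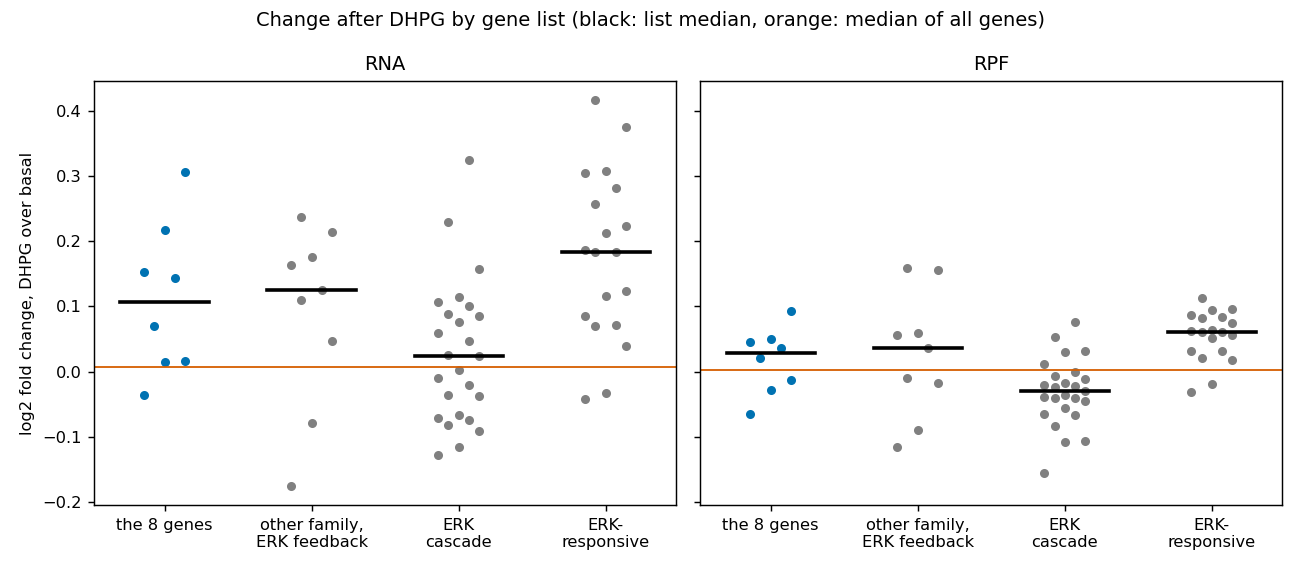
Log2 fold change of DHPG over basal from edgeR (vertical axis) for each tested gene of the 4 lists (horizontal axis) in RNA at left and RPF at right, with black bars at the list medians and an orange line at the median of all genes. The RNA medians are 0.11 for the 8 genes, 0.13, 0.024 and 0.18 for the other lists, and in RPF they lie between -0.031 and 0.06.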

How the data were processed

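Libraries were 19 in all: 4 basal and 5 DHPG RNA-seq, and 5 basal and 5 DHPG ribosome profiling libraries of wild-type slices. The authors trimmed reads with cutadapt, removed rRNA and tRNA reads with Bowtie2, aligned the rest to mm10 with TopHat2, used molecular identifiers to drop duplicates, and deposited RSEM's expected counts of each gene as whole numbers, not normalized. Counting of RPFs covered the coding sequence less 30 bases at each end, so ribosomes near its start and stop are left out, and RNA was counted over the full transcript. A further 12 columns of per-sample values match no sample analysed here and were not used. Depth, from 4870813 to 22092434 counts a library, sets the counting error of single genes. Pooled slices make each library an average over mice. With replicate number as a block, edgeR's p-values and intervals rest only in part on how a gene's difference varies over 4 RNA and 5 RPF pairs. The quasi-likelihood fit also draws each gene's variance toward that of other genes. A gene whose own pairs vary more than most can thus get a smaller p than its pairs alone would give.

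Counts were analysed in R 4.3.3 with edgeR 4.0.16 (TMM, filterByExpr, quasi-likelihood F test, replicate number as a block, Benjamini-Hochberg adjustment over all genes tested), at an adjusted p of 0.01 for RNA and 0.05 for RPF and TE. TE was tested as the interaction between assay and treatment, in a single model of all 19 libraries. With the block, the unpaired DHPG RNA library of replicate 5 has a block term of its own and informs neither the fold change nor the spread. It enters only through the filter and the normalization (Spry2 RNA log2 fold change 0.306 with it and 0.299 without). SE is the size of the log2 fold change over the root of F. Log2 CPM used a prior count of 2. Every adjusted p is from edgeR unless DESeq2 1.42.0 is named. Replicate numbers paired the samples: deviations of libraries with the same number from their group means correlated at 0.50, 0.31, 0.74 and 0.65 in RNA and at 0.26, 0.52, 0.47, 0.49 and 0.34 in RPF. In RNA, basal replicate 2 correlated better with DHPG replicate 3 than with its own number; in all other cases the own number was best. Gene lengths came from GENCODE for GRCm38 (96.0% of 20436 symbols matched), positions and promoters from RefSeq for GRCm38.p6.

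The 8 genes, the lists and the examples named (the 2 highest and 2 lowest of each list, and the 2 genes most like a member, of which the first is named for all and the second for Spry2) were chosen with earlier results of these data known, and the thalamus markers were picked in an earlier look at these data. Alternatives were DESeq2's size factors, no filter, at least 10 counts in every library, no block, DESeq2 with the block, ComBat (sva 3.50.0) followed by DESeq2, removal of trends with GC content and length, exchanged thresholds, limma 3.58.1 for TE, other lengths and prior counts for the ratio, and each replicate left out. The edgeR steps were tested on simulated data.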

Additional observations from a re-analysis of the deposited data

Results flagged for a closer look

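In 32 groups of 4 or 5 libraries (8 genes, RNA and RPF, basal and DHPG), 2 libraries stood apart from the rest of their group by Dixon's criterion at 95%, where chance gives about 1.6. Dusp1 RNA in DHPG replicate 3 was at 256.4 CPM, with the other DHPG libraries between 172 and 195 CPM. The basal library of the same replicate was also the highest of its group, at 246 CPM. Dusp6 RNA in DHPG replicate 1 was at 121 CPM, with the other DHPG libraries between 149.8 and 160.3 CPM, and the basal library of replicate 1 was the lowest of its group, at 131 CPM.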

How the results depend on the processing

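No RPF or TE result of the 8 genes passed its threshold under any alternative, and in RNA 1 did, Spry2 with ComBat followed by DESeq2 (log2 fold change 0.29, adjusted p = 0.00233, 1 of 8 genes past the threshold). Genes past the RNA threshold numbered 1 as reported, 7 with no filter on low counts, 0 with at least 10 counts in every library, 0 with no replicate block, 0 with DESeq2 and the block, 102 with ComBat and DESeq2, 0 with GC and length trends removed, and 0 to 22 with 1 replicate left out (22 without replicate 2). RPF calls were 29 as reported, 96 with no filter, 0 with no replicate block, 429 with ComBat and DESeq2, 8 at a threshold of 0.01 and 3 to 71 with 1 replicate left out (3 without replicate 2, 71 without replicate 3). TE calls were 0 as reported and 0 to 8 with 1 replicate left out (8 without replicate 2). The cause of these shifts was not tested. Estimates that changed sign were small: with no replicate block, RNA of Spred2 (-0.034), RPF of Dusp4 (0.0028) and TE of Dusp5 (0.0036), Spry4 (0.030) and Spred2 (0.011), with GC and length trends removed, RNA of Spred2 (-0.022), and with limma, TE of Dusp5 (0.035) and Spry4 (0.055). Leaving out 1 replicate gave RNA ranges of -0.0091 to 0.30 for Dusp1, -0.064 to 0.18 for Dusp5 and -0.029 to 0.053 for Dusp6, RPF ranges of -0.017 to 0.11 for Dusp1, -0.063 to 0.057 for Dusp4, -0.030 to 0.086 for Dusp5 and -0.014 to 0.069 for Spry2, and TE ranges of -0.12 to 0.037 for Dusp5, -0.00056 to 0.11 for Dusp6, -0.051 to 0.017 for Spred1 and -0.15 to 0.014 for Spry4. Without division by length the basal log2 ratios were 0.56 for Spry4, 0.46 for Dusp6, 0.24 for Dusp4, -0.98 for Spred1, -0.86 for Spred2, -0.40 for Spry2, -0.46 for Dusp5 and -0.45 for Dusp1, beside a median of -0.18 for all genes. In 158 further comparisons with 1 replicate left out and 202 with another alternative, values kept their direction and their side of the threshold (or had no adjusted p from DESeq2), counts stayed within 1.5 times, and untested values moved by less than 1 SD. With 4 RNA pairs and 5 RPF pairs, the 95% intervals give the precision of the fold changes, widest for Spry4. Passing an adjusted threshold asks for more than an interval that leaves out 0. The RNA intervals of Spry2 and Dusp4 left out 0, at adjusted p of 0.414 and 0.598 by edgeR.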
